A study of Mus musculus with 6 samples.

Results

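The 10 genes described here make and recycle the pyrimidine ribonucleotides of the cell: *Cad*, *Dhodh*, *Umps*, *Ctps* and *Ctps2* for de novo synthesis of UMP and CTP, *Uck2*, *Upp1* and *Cda* for salvage of uridine and cytidine, and *Cmpk1* and *Nme4* for the phosphorylation of the monophosphates and diphosphates. They were chosen by name, as the loci of the deposited count table whose gene name, or 1 of whose joined gene names, is a member, and they account for 10 of 51499 loci. Each member is a locus of its own and passed the filter on low counts. The libraries are bulk poly(A) RNA-Seq of WT MEFs, fibroblasts grown from mouse embryos, 72 h after transfection with a scrambled control siRNA (Scr, 3 cultures) or with siRNA against *Yme1l* (Yme1l siRNA, 3 cultures). The sample labels describe these cells as 3T3 immortalized, whereas the methods of the study describe WT MEFs as a genotyped clone that kept its Yme1l loxP/loxP alleles after Cre and was immortalized with SV40 large T antigen. Both groups are the same WT MEF line, and the siRNA is the only stated difference between them. A single line stands for the genotype. YME1L is a protease of the mitochondrial inner membrane. The study asked why its loss causes inflammation, and linked this to pyrimidine deficiency and mtDNA release.

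In de novo synthesis, the trifunctional protein CAD builds dihydroorotate from glutamine, bicarbonate and aspartate. DHODH, in the inner membrane of mitochondria, oxidizes it to orotate and hands the electrons to the respiratory chain, and UMPS turns orotate into UMP. CTP synthases aminate UTP to CTP with nitrogen from glutamine. In salvage, uridine and cytidine kinases phosphorylate nucleosides that are taken up or released inside the cell, cytidine deaminase converts cytidine into uridine, and uridine phosphorylase cleaves uridine into uracil and ribose 1-phosphate. UMP and CMP from either route are then raised to diphosphates by CMPK enzymes and to triphosphates by the NME family.

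Levels are given as CPM, the counts of a locus scaled to library size with TMM factors, and compare a gene only with itself. Differences are log2 fold changes of Yme1l siRNA relative to Scr from edgeR's quasi-likelihood test, each with its standard error and a p-value with Benjamini-Hochberg adjustment over all 14499 loci tested. A gene is said to rise or fall where the adjusted p was under 0.05. The libraries hold between 37260605 and 45205207 counts, and the p-values measure the spread between cultures of 1 line. *Yme1l1*, the targeted gene, was at 170, 171 and 171 CPM in Scr cultures and at 31.6, 23.4 and 45.0 CPM in Yme1l siRNA cultures, a log2 fold change of -2.36 (SE 0.20, adjusted p = 3.87e-05). The weakest knockdown was in Yme1l siRNA replicate 3. Fewer cells of a type and less RNA per cell cannot be told apart in bulk libraries.

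Of the 10 members, 5 rose, 3 fell and 2 did not pass the test. Over all 14499 loci tested, 58.0% passed the test, 28.4% as higher and 29.6% as lower, so that 8 members called of 10 stand beside a background in which most loci were called. The groups did not overlap for 8 of the 10 members, against 65.4% of all loci tested. The median log2 fold change of the members was 0.34, beside 0.01 over all loci tested. By route, de novo synthesis had 4 of 5 members higher and 1 lower, with a median of 0.54. Salvage had 1 of 3 higher and 1 lower, with a median of 0.01, and the kinases had 0 of 2 higher and 1 lower, with a median of -0.09.

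**Figure D1:**
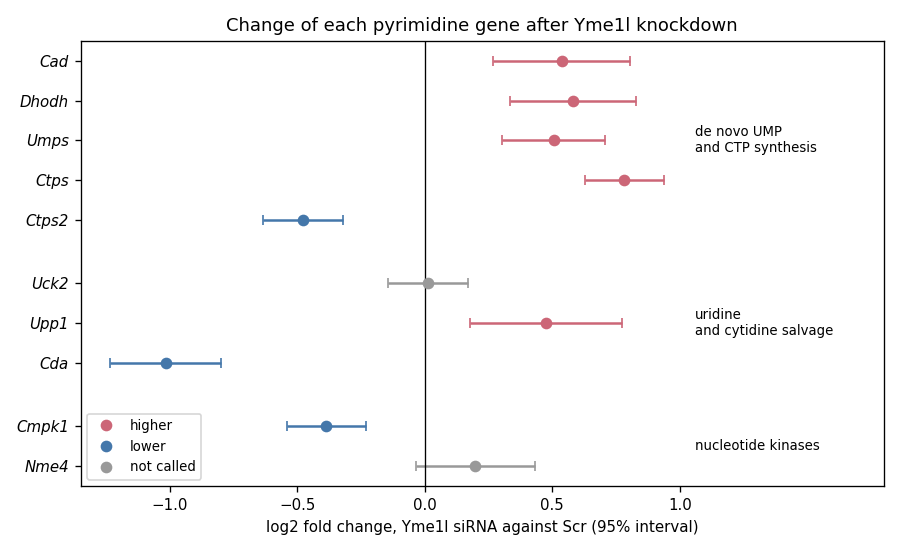
Log2 fold change of each of the 10 members, Yme1l siRNA relative to Scr, with its 95% confidence interval from edgeR's fit (3 cultures per group). *Cad*, *Dhodh*, *Umps*, *Ctps* and *Upp1* lie to the higher side, *Ctps2*, *Cda* and *Cmpk1* to the lower side, and the intervals of *Uck2* and *Nme4* cross 0.

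For the route to UMP and CTP, the 150 bases just upstream of a RefSeq transcription start are shown first for *Cad* and *Umps*, which rose together, and for the CTP synthases *Ctps* and *Ctps2*, which moved in opposite directions. They were read from RefSeq's GRCm38.p6 promoters on the strand of the gene, 5′ to 3′, at chr5:31054630-31054779 (plus strand) for *Cad*, chr16:33967039-33967188 (minus) for *Umps*, chr4:120570277-120570426 (minus) for *Ctps* and chrX:162902021-162902170 (plus) for *Ctps2*. Capitals mark CG dinucleotides.
Cad: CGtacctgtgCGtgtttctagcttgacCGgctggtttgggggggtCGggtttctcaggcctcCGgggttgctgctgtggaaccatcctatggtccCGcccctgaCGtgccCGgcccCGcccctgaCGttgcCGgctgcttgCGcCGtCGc
Umps: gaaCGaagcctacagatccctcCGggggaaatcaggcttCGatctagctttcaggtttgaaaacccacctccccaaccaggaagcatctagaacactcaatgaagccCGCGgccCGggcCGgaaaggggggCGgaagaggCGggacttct
Ctps: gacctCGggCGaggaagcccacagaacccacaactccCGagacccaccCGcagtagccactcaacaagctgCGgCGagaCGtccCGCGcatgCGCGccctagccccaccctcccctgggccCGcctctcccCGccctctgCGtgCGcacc
Ctps2: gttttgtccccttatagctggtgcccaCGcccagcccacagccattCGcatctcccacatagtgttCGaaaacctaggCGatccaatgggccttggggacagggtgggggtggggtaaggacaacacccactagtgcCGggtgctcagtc
The windows of *Ctps* and *Cad* hold 15 and 14 CG dinucleotides, counts that 15.3% and 17.9% of all RefSeq mouse promoters reach or pass in the same 150 bases. The window of *Umps* holds 9, which 31.7% reach, and that of *Ctps2* holds 5, which 45.7% reach. The median over all promoters was 4. RefSeq lists further starts for *Ctps* and *Ctps2*, and the start listed first is shown. Over 300 bases around a start, the *Ctps* start shown holds 27 CG and its other start 17. For *Ctps2* the start shown holds 14 and each other start 6, beside a median of 7 over all promoters. The ranks of *Ctps* and *Ctps2* thus depend on the start chosen.

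*Cad* (XLOC_031808), the entry enzyme of the route, lies on chromosome 5 of mm10 from 31054780 to 31078479 on the plus strand. It was at 153, 148 and 169 CPM in the Scr cultures and at 232, 189 and 261 CPM in the Yme1l siRNA cultures. All Yme1l siRNA cultures were above all Scr cultures, and replicate 3, with the weakest knockdown, was the highest. Group means were 157 ± 10.7 and 227 ± 36.2 CPM (SD, n = 3 each), and the log2 fold change was 0.54 (SE 0.12, adjusted p = 0.00438). Without Yme1l siRNA replicate 3 the value was 0.42 and still passed the test (adjusted p = 0.00782).

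*Dhodh* (XLOC_044413, chromosome 8, 109591343 to 109608673, minus strand) had the lowest level of the route. It was at 9.40, 9.06 and 9.08 CPM in Scr cultures and at 12.9, 12.8 and 15.5 CPM after *Yme1l* knockdown. The spread between Scr cultures was narrow, the groups did not overlap, and replicate 3 was again the highest. Group means were 9.18 ± 0.191 and 13.7 ± 1.55 CPM (SD, n = 3 each), with a log2 difference of 0.58 (SE 0.11, adjusted p = 0.00201).

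*Umps* (XLOC_018390, chromosome 16, 33954782 to 33967038, minus strand) was at 81.6, 81.6 and 80.1 CPM in Scr cultures and at 111, 104 and 129 CPM in Yme1l siRNA cultures. As for *Cad* and *Dhodh*, the groups did not overlap and replicate 3 was the highest of its group. Its log2 fold change was 0.50 (SE 0.09, adjusted p = 0.00134). *Umps* overlaps *Gm15829* on the other strand, a locus with at most 5 counts in any library. The genes of the 3 enzymes that lead to UMP thus had log2 fold changes between 0.50 and 0.58, and their 95% intervals overlap one another. Without replicate 3 of the knockdown, the values for *Dhodh* and *Umps* were 0.48 and 0.41 and both still passed the test (adjusted p = 0.00392 and 0.00107).

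*Ctps* (XLOC_031022, chromosome 4, 120539868 to 120570276, minus strand) encodes CTP synthase 1 and had the largest rise of the 10 members. Its levels were 99.4, 95.4 and 102 CPM in Scr cultures and 178, 163 and 171 CPM in Yme1l siRNA cultures. Here replicate 1 was the highest, and the cultures of a group lay close together. With group means of 99.1 ± 3.55 and 170 ± 7.19 CPM (SD, n = 3 each), it rose by 0.78 on the log2 scale (SE 0.07, adjusted p = 4.04e-05). A pseudogene, *Gm18699*, shares 243 bases with *Ctps* at 96.7% identity and has at most 1 count in any library.

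*Ctps2* (XLOC_048657, chromosome X, 162901238 to 163032508, plus strand) encodes the other CTP synthase and was the member of the de novo route that fell. It was at 55.0, 53.1 and 48.6 CPM in Scr cultures and at 38.6, 37.2 and 36.7 CPM in Yme1l siRNA cultures, again without overlap. The log2 fold change was -0.48 (SE 0.07, adjusted p = 0.000508). The ratio of *Ctps* to *Ctps2*, taken within each culture, compares the genes without a shared scale factor. Its log2 value was 0.85, 0.85 and 1.07 in Scr cultures and 2.20, 2.13 and 2.22 in Yme1l siRNA cultures. It rose by 1.26 (SE 0.08), or 2.39-fold, and the groups did not overlap (exact two-sided permutation test, p = 0.1, the smallest that 3 cultures against 3 allow; 0.1 after Benjamini-Hochberg adjustment over the 3 ratios tested). Per kilobase of summed exon length, *Ctps* made up 72.0%, 71.9% and 75.0% of the CTP synthase signal in Scr cultures and 86.8%, 86.2% and 86.9% after knockdown. Which of the genes is higher in Scr cultures depends on the measure. The authors' pooled FPKM was 38.6 for *Ctps* and 44.5 for *Ctps2* in Scr, and 66.8 and 32.5 in Yme1l siRNA. FPKM comes from the authors' own pipeline, and the part of gene length in this difference was not tested.

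**Figure D2:**
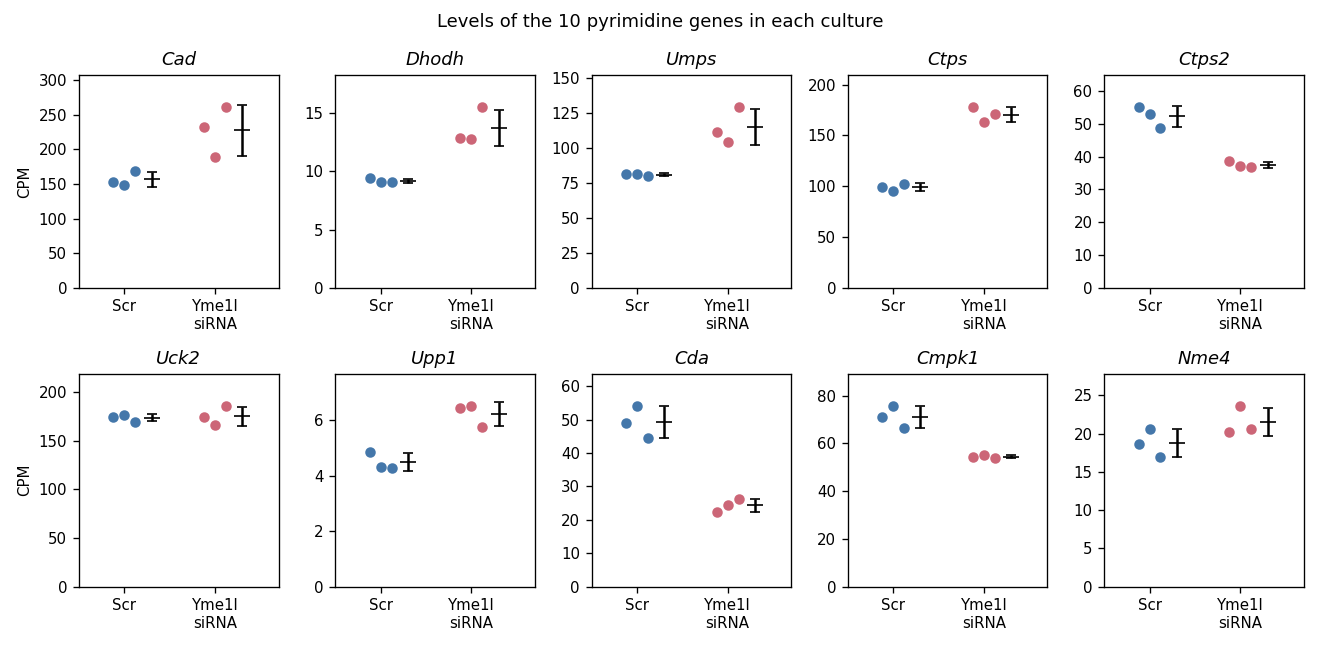
CPM of each of the 10 members in each of the 6 cultures, with the group mean as a horizontal mark and 1 SD as the error bar (n = 3). The Scr and Yme1l siRNA points are apart in 8 panels and overlap in those of *Uck2* and *Nme4*.

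Among the salvage genes there was no shared direction. *Uck2* (XLOC_003033, chromosome 1, 167222883 to 167285320, minus strand), a uridine and cytidine kinase, was at 174, 177 and 170 CPM in Scr cultures and at 174, 166 and 186 CPM in Yme1l siRNA cultures. The groups overlapped. Its log2 fold change was 0.01 (SE 0.07, 95% interval -0.14 to 0.17, adjusted p = 0.885), and its sign turned when replicate 3 of either group was left out. The authors' pooled FPKM for *Uck2*, which has no replicate values, was 72.0 in Scr and 119 in Yme1l siRNA, and so differs from the counts. The locus of that FPKM table reaches to 167289856, past the annotated start of the gene, and the part of this in the difference was not tested. For the other 9 members the pooled FPKM and the mean CPM differed between the groups in the same direction. *Uck2* overlaps *Gm37982* and *Gm2453* on the other strand, loci with at most 1 and 3 counts in any library.

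*Upp1* (XLOC_005948, chromosome 11, 9118103 to 9136170, plus strand), uridine phosphorylase 1, had few reads, with 210, 155 and 181 counts in Scr cultures and 285, 283 and 242 counts in Yme1l siRNA cultures. This corresponds to 4.85, 4.30 and 4.29 CPM against 6.43, 6.51 and 5.74 CPM, without overlap. It rose by 0.47 on the log2 scale (SE 0.13, adjusted p = 0.0135). The call was lost without Scr replicate 2 (0.44, adjusted p = 0.0524) and without Yme1l siRNA replicate 1 (0.45, adjusted p = 0.0504).

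*Cda* (XLOC_031288, chromosome 4, 138338424 to 138367992, minus strand), cytidine deaminase, had the largest fall of the members. It was at 48.9, 54.1 and 44.5 CPM in Scr cultures and at 22.3, 24.3 and 26.3 CPM after knockdown. The lowest Scr culture was well above the highest Yme1l siRNA culture. Group means were 49.2 ± 4.80 and 24.3 ± 2.00 CPM (SD, n = 3 each), and the log2 difference was -1.02 (SE 0.10, adjusted p = 5.46e-05). Over all loci tested, 16.1% had a change of at least 1 log2 unit in either direction, and *Cda* was the only one of the 10 members among them.

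Of the kinases, *Cmpk1* (XLOC_030921, chromosome 4, 114959336 to 114987241, minus strand), the cytosolic UMP and CMP kinase, was at 71.2, 75.7 and 66.7 CPM in Scr cultures and at 54.3, 55.0 and 54.0 CPM in Yme1l siRNA cultures. The groups did not overlap and the knockdown cultures hardly varied. It fell by 0.39 on the log2 scale (SE 0.07, adjusted p = 0.00143). Its pseudogene *Gm5867* shares 592 bases at 96.5% identity and has at most 7 counts in any library.

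*Nme4* (XLOC_019781, chromosome 17, 26091734 to 26095602, minus strand), a nucleoside diphosphate kinase of mitochondria, was at 18.6, 20.6 and 17.0 CPM in Scr cultures and at 20.2, 23.6 and 20.6 CPM in Yme1l siRNA cultures. The groups overlapped, since Scr replicate 2 lay within the range of the knockdown cultures. The log2 fold change was 0.20 (SE 0.10, 95% interval -0.04 to 0.43, adjusted p = 0.128). Each Yme1l siRNA culture was above the Scr culture of the same number, and with the replicate number as a block the value was 0.20 (adjusted p = 0.0603), still not past the test.

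For *Uck2* and *Cmpk1*, as for *Ctps*, the ratio to a paralog of the same step was also taken. *Uck1*, the other uridine and cytidine kinase, was at 51.1, 50.9 and 54.0 CPM in Scr cultures and at 34.2, 32.9 and 37.9 CPM after knockdown, and fell by 0.57 on the log2 scale (SE 0.07, adjusted p = 0.000281). It overlaps *Pomt1* on the other strand, and whether the counting used the strand is not stated in the sources used here. The log2 ratio of *Uck2* to *Uck1* was 1.74 ± 0.0774 in Scr cultures and 2.33 ± 0.0297 in Yme1l siRNA cultures (SD, n = 3 each). It was higher in 3 of 3 knockdown cultures than in any Scr culture, a rise of 0.59 (SE 0.05; exact two-sided permutation test, p = 0.1, and 0.1 after adjustment).

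*Cmpk2*, the mitochondrial UMP and CMP kinase and an interferon-induced gene, was at 8.89, 8.04 and 2.68 CPM in Scr cultures and at 53.1, 60.9 and 22.5 CPM in Yme1l siRNA cultures. Replicate 3 was the lowest of each group, and the groups did not overlap. It rose by 2.80 on the log2 scale (SE 0.47, adjusted p = 0.0011). The log2 ratio of *Cmpk1* to *Cmpk2* went from 3.62 ± 0.885 to 0.38 ± 0.766 (SD, n = 3 each), a change of -3.24 (SE 0.68; exact two-sided permutation test, p = 0.1, and 0.1 after adjustment). Per kilobase of summed exon length, *Cmpk2* made up 3.19% to 9.31% of the signal of both kinases in Scr cultures and 25.5% to 47.6% in Yme1l siRNA cultures.

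**Figure D3:**
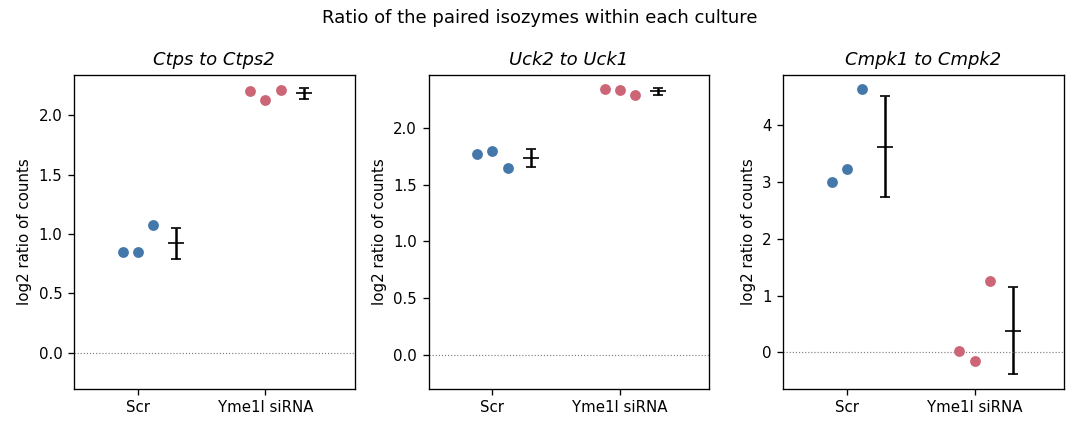
Log2 ratio of the counts of *Ctps* to *Ctps2*, *Uck2* to *Uck1* and *Cmpk1* to *Cmpk2* in each culture, with the group mean and 1 SD (n = 3). The first and second ratios are higher and the last is lower in every Yme1l siRNA culture than in any Scr culture.

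Of 8 short motifs searched in the promoters of the members, 2 that occur in under 10% of all promoters were found, for *Upp1* and *Cmpk1*, and the 30 bases around each match are shown with the motif in capitals. The sequences are from RefSeq, GRCm38.p6, on the strand of the gene, 5′ to 3′, at chr11:9117953-9117982 (plus strand) for *Upp1* and at chr4:114987372-114987401 and chr4:114987315-114987344 (minus) for *Cmpk1*.
Upp1, AP-1 word TGANTCA: actgaatgaaTGAGTCAtttcccctactgg
Cmpk1, interferon response core GAAANNGAA, distal: cttctcttggGAAAGGGAAacccgggagat
Cmpk1, interferon response core GAAANNGAA, proximal: tccaggttctGAAACTGAAatgccttgggt
The window searched spans 250 bases before to 50 after a start, on both strands, for 14 starts of 9 members; *Dhodh* had no entry. TGANTCA was found in 7.81% of all 32851 promoters and GAAANNGAA in 8.56%. The *Upp1* word is a single site, seen from a pair of neighboring starts. CCAAT was found for *Ctps2* and *Uck2*, and in 37.4% of all promoters. The E-box CACGTG (7.15% of all promoters), the E2F words GGCGGGAA (2.19%) and TTTGGCGC (0.514%), the ATF4 word TGATGCAA (0.895%) and the GAS word TTCNNNGAA (8.30%) were in none of the 14 windows. These are matches of letters, and *Cmpk1* itself fell in the comparison.

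Levels of different genes can be set side by side only per length, here as CPM per kilobase of summed exon length. In Scr cultures *Cda* was the highest at 47.5 ± 4.63, followed by *Uck2* at 31.8 ± 0.666, *Ctps* at 29.9 ± 1.07 and *Umps* at 23.3 ± 0.243 (SD, n = 3 each). *Cmpk1* at 20.8 and *Cad* at 19.2 came next and overlapped, as did *Nme4* at 11.8 and *Ctps2* at 11.1. *Upp1* at 2.28 and *Dhodh* at 1.45 were the lowest, each apart from its neighbors in the order. After knockdown *Ctps* was the highest at 51.4 ± 2.17 (SD, n = 3), and *Cda* had dropped to the fifth place at 23.5. From *Umps* at 33.0 through *Uck2* and *Cad* to *Cda* at 23.5, each overlapped with the next of these genes, and *Cda* was apart from *Cmpk1* at 15.9. *Upp1* and *Dhodh* stayed the lowest at 3.18 and 2.17. The order depends on the measure used, as given above for *Ctps* and *Ctps2*. By the authors' pooled FPKM after knockdown, *Uck2* at 119 was above *Ctps* at 66.8. *Upp1* was below *Dhodh* by that measure, at 4.95 and 5.98 in Scr and at 6.81 and 8.45 in Yme1l siRNA.

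**Figure D4:**
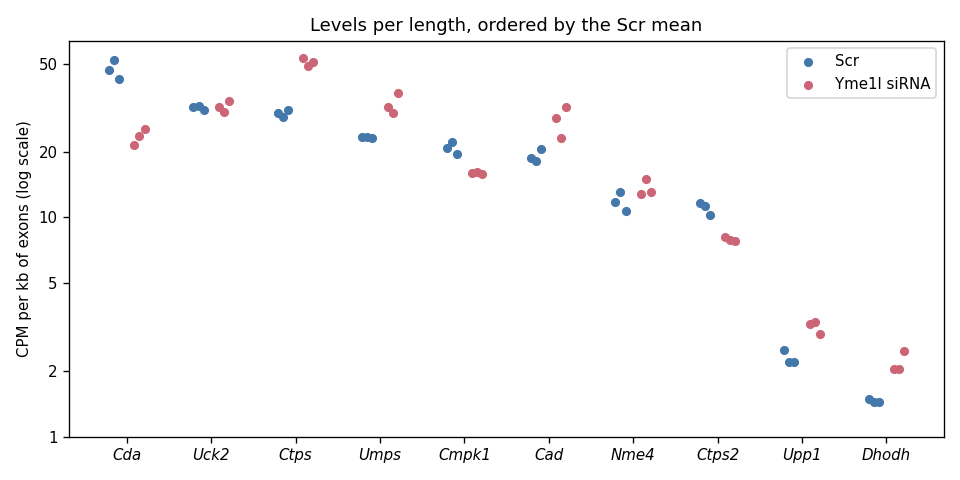
CPM per kilobase of summed exon length of each member in each culture, on a log axis, ordered by the Scr mean. *Cda* leads in Scr cultures and *Ctps* in Yme1l siRNA cultures, and *Upp1* and *Dhodh* are the lowest in both.

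The profile most like that of *Ctps* over the 6 cultures, by the root mean square difference of log2 CPM centered on each gene's mean, was that of *Exosc7* (0.0325), followed by *Ppp1r15b* (0.0337) and *Got2-ps1* (0.0350). For *Cda* these were *Ypel5* (0.0407), *Stx8* (0.0557) and *Mpnd* (0.0566). The likeness is a description over 6 cultures.

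The genes around the members were taken from lists by role. Each count of such a list stands beside 28.4% of all loci tested called higher and 29.6% called lower. *Nme7*, *Nt5c*, *Nt5c3b*, *Tymp*, *Slc29a1*, *Slc25a33*, *Got2*, *Glul*, *Ugp2*, *Pcyt1a*, *Tk1*, *Ppat*, *Paics*, *Impdh2* and *Csf1r* overlap a gene on the other strand, as *Uck1* does, with the same limit. *Uckl1* and *Nme3* do so as well. Among 9 loci of other ribonucleotide kinases and salvage genes, 2 rose and 4 fell, with a median log2 fold change of -0.16. *Nme6*, of the diphosphate kinase family, rose by 1.37 (SE 0.10, adjusted p = 1.54e-05), whereas *Nme7* fell by 0.53 (SE 0.08, adjusted p = 0.000653) and *Upp2*, the other uridine phosphorylase, fell by 1.03 (SE 0.15, adjusted p = 0.000548). *Nme1* and *Nme2*, the main cytosolic diphosphate kinases, are counted as 1 locus with the readthrough *Gm20390*. That locus had a log2 fold change of -0.34 (SE 0.11, adjusted p = 0.0285), and leaving out Scr replicate 2 or 3 or Yme1l siRNA replicate 1 or 2 ended the call, the adjusted p then lying between 0.0667 and 0.0980. *Uckl1*, joined with *Zfp512b*, and *Nme3*, joined with *Mrps34*, did not pass the test at 0.11 (SE 0.07, adjusted p = 0.242) and -0.08 (SE 0.07, adjusted p = 0.372).

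Of 9 genes of pyrimidine breakdown, 7 were tested, of which 2 rose and 4 fell. *Dpyd*, which encodes the rate-limiting enzyme of uracil and thymine breakdown, had 86, 73 and 83 counts in Scr cultures and 12, 20 and 15 in Yme1l siRNA cultures. It fell by 2.45 on the log2 scale (SE 0.25, adjusted p = 8.22e-05). *Tymp*, thymidine phosphorylase, counted jointly with *Sco2*, rose by 0.69 (SE 0.10, adjusted p = 0.000631), as did the nucleotidase gene *Nt5c3b* by 0.47 (SE 0.07, adjusted p = 0.000573), and *Nt5c* fell by 0.29 (SE 0.07, adjusted p = 0.00667).

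Of 8 transporters, 6 were tested, of which 4 rose and 2 fell. The mitochondrial pyrimidine nucleotide carriers moved in opposite directions. *Slc25a33* was at 19.8 ± 0.900 and 24.9 ± 0.477 CPM (SD, n = 3 each) and rose by 0.32 (SE 0.07, adjusted p = 0.00532), and *Slc25a36* was at 89.1 ± 1.63 and 50.3 ± 1.62 CPM and fell by 0.82 (SE 0.06, adjusted p = 2.15e-05). At the plasma membrane, the equilibrative nucleoside transporters *Slc29a1* and *Slc29a2* rose by 0.55 (SE 0.11, adjusted p = 0.0025) and 1.04 (SE 0.19, adjusted p = 0.00153). The concentrative transporter *Slc28a2* had 0, 1 and 0 counts in Scr cultures and 51, 70 and 15 in Yme1l siRNA cultures. It was at least 13.9-fold higher against a floor of 3 counts per Scr library (adjusted p = 0.000616). *Slc28a2* passed the filter on low counts only through the Yme1l siRNA cultures, so its p-value adds no separate support for the rise.

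Of 10 genes that make, carry or consume precursors, 5 rose and 2 fell, with a median of 0.26. Those that rose include *Ass1* and *Asns* (0.51, SE 0.10, adjusted p = 0.00238), whose enzymes consume aspartate. The count is thus not one of supply alone. *Ass1*, which consumes aspartate in arginine synthesis, was at 14.9 ± 1.24 CPM in Scr and 37.6 ± 1.75 CPM in Yme1l siRNA cultures (SD, n = 3 each) and rose by 1.34 (SE 0.09, adjusted p = 1.19e-05). *Got2*, the mitochondrial aspartate aminotransferase, rose by 0.75 (SE 0.08, adjusted p = 0.000119) and *Prps1*, for the ribose donor PRPP, by 0.49 (SE 0.07, adjusted p = 0.000431), whereas *Glul*, glutamine synthetase, fell by 0.49 (SE 0.09, adjusted p = 0.00194). Of 7 genes whose enzymes use UTP, CTP or UDP-glucose, 1 rose and 5 fell, with a median of -0.35. *Ugp2*, for UDP-glucose, fell by 1.25 (SE 0.09, adjusted p = 1.62e-05). *Ugdh*, counted with *Smim14* and *Gm43552*, fell by 0.39 (adjusted p = 0.0016). Its enzyme acts on UDP-glucose and uses neither UTP nor CTP itself. The genes for the activation of ethanolamine and choline by CTP, *Pcyt2* and *Pcyt1a*, fell by 0.35 and 0.32 (adjusted p = 0.00221 and 0.00261).

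Of 11 genes of pyrimidine deoxynucleotide metabolism, 9 rose and 1 fell, with a median of 0.71. The largest rises there were those of *Tk1* (1.53, SE 0.07), *Tyms* (1.50, SE 0.08), *Dctd* (1.27, SE 0.07) and *Dck* (1.23, SE 0.09). For comparison with the 4 of 5 members of de novo pyrimidine synthesis that rose, 8 of 11 genes of purine de novo synthesis rose and 2 fell, with a median of 0.47. *Ppat*, the first committed enzyme of that route, rose by 1.10 (SE 0.09), *Atic* by 0.88 (SE 0.08), *Pfas* by 0.71 (SE 0.07) and *Impdh2* by 0.57 (SE 0.07), whereas *Paics*, which overlaps *Ppat* on the other strand, and *Adssl1* fell. The difference between the routes was not tested, and 28.4% of all loci tested rose and 29.6% fell.

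**Figure D5:**
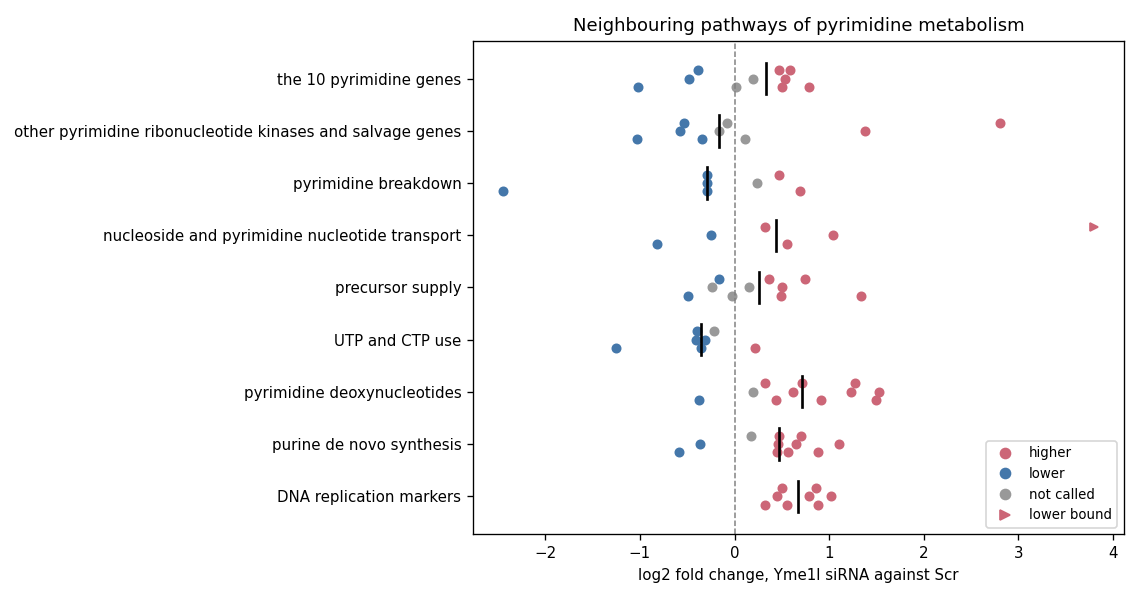
Log2 fold change of every tested locus of each list, Yme1l siRNA relative to Scr, 1 point per locus, colored by call, with the list median as a line and the lower bound of *Slc28a2* as a triangle. The medians of the pyrimidine deoxynucleotide list (0.71) and of the DNA replication markers (0.67) lie above that of the 10 members (0.34). Those of the list of UTP and CTP use, which includes *Ugdh* (-0.35), and of the breakdown genes (-0.29) lie below 0.

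Of the DNA replication markers, 8 of 8 rose, with a median of 0.67, as did 4 of the 5 de novo members. Over all loci tested, 28.4% were called higher. The summed level of the replication markers was 1334 to 1445 CPM in Scr cultures and 2138 to 2219 CPM in Yme1l siRNA cultures. Examples were *Mcm3* (0.88, SE 0.07), *Mcm2* (0.87, SE 0.07), *Mcm5* (0.79, SE 0.08) and *Pcna* (0.56, SE 0.07). Fibroblast markers moved the other way: of 5 tested of 6, *Col1a1*, *Col1a2*, *Col3a1* and *Pdgfrb* fell, *Vim* did not pass the test, and *Thy1* had at most 1 count in any library. Their summed level was 24060 to 31000 CPM in Scr cultures and 13870 to 16800 CPM in Yme1l siRNA cultures. Of the leukocyte markers, *Ptprc* and *Itgam* had at most 3 counts, *Adgre1* had 0 counts, and *Csf1r*, with 4559 to 9366 counts, rose by 0.74 (SE 0.10, adjusted p = 0.000431). The summed endothelial markers were at 3.72 to 3.91 CPM in Scr cultures and 4.69 to 6.91 CPM in Yme1l siRNA cultures, where *Tek*, 1 of 2 tested, rose by 0.61 (SE 0.17, adjusted p = 0.0123) and *Pecam1* did not pass the test. No epithelial or pluripotent cell marker passed the filter on low counts, with *Krt5* and *Pou5f1* at 0 counts. The part of any marker list in the changes of the members was not tested. mtDNA-encoded loci took 4.11%, 3.92% and 2.20% of counts in Scr cultures and 2.00% to 2.14% in Yme1l siRNA cultures, so that Scr replicate 3 stood apart from its group. Without Scr replicate 3, *Cad* had a value of 0.59 and *Ctps* of 0.80, both still past the test, and without mtDNA loci these were 0.54 and 0.78.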

How the data were processed

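WT MEFs were transfected with Scr or Yme1l siRNA and collected after 72 h, with 3 independent cultures per group, grouped by the sample labels. The authors made stranded poly(A) libraries, aligned the reads to GRCm38 (mm10) with HISAT2 2.0.4, assembled transcripts with StringTie 1.3.3 and compared groups with Cuffdiff 2.2.1, per the submitters' processing notes. The counts per locus were deposited by the authors without normalization; the counting program and its use of the strand are not given in the sources used here. A second deposited table gives the authors' FPKM per group, with the 3 libraries pooled and no spread. Its fold changes, test statistics, p-values and q-values are the authors' own comparison and were not used.

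Loci were kept by filterByExpr in edgeR 4.0.16 (minimum count 10, total 15), which left 14499 of 51499. TMM scaling and the quasi-likelihood test were used without covariates, with Benjamini-Hochberg adjustment over all loci tested and a threshold of 0.05. The standard error is the log2 fold change divided by the square root of F. The biological coefficient of variation was 0.131. Libraries hold 37260605 to 45205207 counts. Within a group, no pair of libraries matched within counting noise (chi-square per degree of freedom of at least 10.4). Exon lengths and coordinates came from GENCODE M21 (mm10), and promoters from RefSeq (GRCm38.p6). Near copies were found with BLAST 2.17.0.

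Members and lists were chosen with earlier results of these data known. Named were the members, *Yme1l1*, *Cmpk2*, *Slc25a33*, *Slc25a36*, *Ass1*, the paralogs *Uck1*, *Uckl1*, *Nme1*, *Nme2* and *Nme3*, up to 4 genes per list by smallest adjusted p, and the 3 most similar profiles of the members with the largest rise and fall. Other genes, including *Asns*, *Paics*, *Adssl1* and those overlapping a member or sharing sequence with it, were named after their values were seen. So were the cell type markers. Alternatives were DESeq2 1.42.0, limma-voom (limma 3.58.1), other scalings, filters and thresholds, a replicate block and leaving out each culture. Removing mtDNA loci was added after seeing the data. Same-numbered cultures deviated together with correlations of 0.111, 0.189 and 0.276 on log2(CPM + 1), but of 0.0409, 0.116 and 0.192 on edgeR's log CPM. The labels state no shared day, and the numbers were taken as pairs for the blocked alternative. The edgeR, DESeq2 and limma-voom fits without a block were run on simulated counts with few changed genes and a shared dispersion. That setting is unlike these data, where 58.0% of loci were called, so it does not test the fits where most loci change. The other steps were not.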

Additional observations from a re-analysis of the deposited data

How the results depend on the processing

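The 10 members were recomputed under 16 alternatives each. *Cad*, *Dhodh*, *Umps*, *Ctps*, *Ctps2*, *Cda* and *Cmpk1* stayed called in the same direction in all 16, and *Nme4* stayed uncalled. *Upp1* lost its call in 3: at a threshold of 0.01, and when Scr replicate 2 or Yme1l siRNA replicate 1 was left out, with a log2 fold change between 0.44 and 0.54 throughout. The uncalled value of *Uck2* turned to -0.0084 without Scr replicate 3 and to -0.0333 without Yme1l siRNA replicate 3, with 0.0570 the highest value when 1 culture was left out, and it was 0.0780 with total counts as the only scaling. The locus of *Nme1* and *Nme2* also lost its call with total counts only (-0.28, adjusted p = 0.0599) and at a threshold of 0.01. Values were compared for the members and the other genes named by the rule, without those of similar profile. Of these recomputed values, 755 kept their direction and side of the threshold, 9 lost the call and 2 turned. The cause was not tested. The counts of members and of all loci called in each direction stayed within 1.5 times; counts of the other lists were not recomputed. With the replicate number as a block, *Cad* had a value of 0.53 and *Ctps* of 0.78. The block changed no call of the members or of the other genes compared in this way. Genes of similar profile, the cell type markers, *Asns*, *Paics* and *Adssl1* were not among those compared. Other scalings moved the median of all loci tested to at most 0.0731, from 0.0087. A p of 0.1 is the smallest for the ratios, so their test cannot pass 0.05 at this sample size. Counts of *Upp1* and *Dpyd* are low, which limits precision.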
